A study of Homo sapiens with 18 samples.

Results

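ERK signalling switches on genes that restrain it and genes that carry part of its output. A set of 10 such ERK-induced genes was examined in HCC827 and NCI-H1975 (H1975 below), human lung adenocarcinoma cell lines that both carry activating EGFR mutations. They were the dual-specificity phosphatases DUSP4, DUSP5 and DUSP6, the Sproutys SPRY1, SPRY2 and SPRY4, the Sprouty-related SPRED1 and SPRED2, and the ETS transcription factors ETV4 and ETV5. The 10 genes were taken by name from a list of known ERK targets, with earlier results of these data known, and all 10 were found by Ensembl identifier among the 60617 genes listed for Illumina and the 58676 listed for each long-read platform. Each line gave 3 RNA samples from cells that the labels describe as grown independently, and each RNA sample was sequenced on an Oxford Nanopore PromethION (ONT, long cDNA reads), on an Illumina NextSeq 500 (short reads) and on a PacBio Sequel II (Iso-Seq), which makes 18 libraries in 6 groups of 3. Cells of both lines had been cultured in RPMI 1640 medium with fetal calf serum, dissociated and frozen, with no drug or other perturbation named, so the lines differ in their whole genetic background and not in a single manipulation.

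In this pathway a growth factor receptor such as EGFR activates RAS, which starts the RAF, MEK and ERK kinase chain. DUSP6 and, in the nucleus, DUSP4 and DUSP5 remove the phosphates that keep ERK active, Sproutys act between the receptor and RAF, and SPRED proteins bring neurofibromin (NF1) to the membrane to switch RAS off. ETV4 and ETV5 belong to the PEA3 group of ETS factors, which bind DNA at a GGAA core and carry part of the transcriptional output. In EGFR-mutant lung cancer cells transcripts of DUSP6, the Sproutys and the PEA3 factors are widely used as readouts of ERK output.

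The promoters shown here belong to the genes on which the comparisons below turn: DUSP6 and SPRY1, which were higher in HCC827 on ONT and on Illumina, and SPRED2, whose difference between the lines depended on the platform. They are the bases directly upstream of RefSeq transcript starts in GRCh38.p14, read 5′ to 3′ on the strand of the gene, and capitals mark GGAA or its reverse complement TTCC. The DUSP6 stretch is chr12:89352502-89352751 on the minus strand, that of the first SPRY1 start is chr4:123396545-123396794 on the plus strand, and those of the SPRED2 starts are chr2:65432638-65432849, cut to the bases outside an annotated exon, and chr2:65366779-65367028, both on the minus strand.
DUSP6: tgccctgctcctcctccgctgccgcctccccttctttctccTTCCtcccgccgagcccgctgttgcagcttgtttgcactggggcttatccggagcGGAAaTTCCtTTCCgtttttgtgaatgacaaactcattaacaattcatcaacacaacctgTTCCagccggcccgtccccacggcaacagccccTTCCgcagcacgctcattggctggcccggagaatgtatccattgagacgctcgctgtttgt
SPRY1, first start: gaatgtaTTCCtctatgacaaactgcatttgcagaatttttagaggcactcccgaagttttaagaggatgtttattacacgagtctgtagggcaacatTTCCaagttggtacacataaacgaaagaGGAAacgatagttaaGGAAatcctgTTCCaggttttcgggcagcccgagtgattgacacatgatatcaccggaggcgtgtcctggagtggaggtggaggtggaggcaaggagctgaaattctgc
SPRED2, first start: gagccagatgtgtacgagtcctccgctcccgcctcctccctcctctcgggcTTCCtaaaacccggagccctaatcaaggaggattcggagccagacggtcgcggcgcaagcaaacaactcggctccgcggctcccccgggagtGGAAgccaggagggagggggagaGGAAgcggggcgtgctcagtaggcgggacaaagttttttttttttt
SPRED2, second start: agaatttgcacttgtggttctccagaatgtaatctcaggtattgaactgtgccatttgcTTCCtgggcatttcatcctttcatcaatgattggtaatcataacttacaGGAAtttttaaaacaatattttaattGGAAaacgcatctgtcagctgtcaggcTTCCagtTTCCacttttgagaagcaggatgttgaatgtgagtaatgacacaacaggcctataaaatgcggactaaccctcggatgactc

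Over the 250 bases before the start the DUSP6 promoter held 6 GGAA matches on either strand, the first SPRY1 promoter 5, and the SPRED2 promoters 4 and 5. Such matches are common: 92.7% of 35116 RefSeq promoters held at least 1 in a window of this length, with a median of 3 and a range from the 5th to the 95th percentile of 0 to 6. Longer motifs searched on both strands were the Capicua octamers TGAATGAA (in 1.40% of all promoters) and TGAATGGA (0.832%), the flanked ETS core CCGGAAG, which contains GGAA (8.52%), the AP-1 site TGANTCA (6.57%) and the cAMP response element TGACGTCA (1.65%). These motifs were searched in promoters of 6 of the 10 genes (DUSP6, SPRY1, SPRY2, SPRY4, SPRED1 and SPRED2). DUSP5, ETV4 and ETV5 were not in the RefSeq table, and DUSP4, on chromosome 8, was left out of the search. Only CCGGAAG was found, upstream of the second SPRY1 start. All 250 bases before that start lie in annotated SPRY1 exons. Of the 250 before the SPRY4 start, 170 lie in annotated SPRY4 exons.

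Library totals over genes were 91344058 to 116497461 counts in ONT HCC827 and 81467393 to 92417847 in ONT H1975. Illumina totals were 10020699 to 36838573 in HCC827, where replicate 2 is the smallest library, and 33362018 to 40200473 in H1975. PacBio totals were only 37795 to 54339 in HCC827 and 41253 to 53074 in H1975. On ONT and Illumina both lines had counts for all 7 epithelial markers (EPCAM, CDH1, NKX2-1 and keratins), as lung adenocarcinoma lines should, and on PacBio NKX2-1 was at 0 in H1975. On Illumina their summed level was 10947 to 17339 CPM (counts scaled to a common library size) in HCC827, against 3812 to 4088 CPM in H1975. Summed fibroblast markers had 0.338 to 0.864 CPM in HCC827 and 67.3 to 79.8 CPM in H1975, the leukocyte markers 11.9 to 17.4 CPM in HCC827 and 7.79 to 8.81 CPM in H1975, and the endothelial markers 3.38 to 4.13 CPM in HCC827 and 6.51 to 7.68 CPM in H1975. Of the defining ones, COL1A2 had 1 Illumina count in all HCC827 libraries together against 8538 in H1975, PTPRC had 14 against 17, and TYROBP had 0 in both lines. The part of these marker differences in the results below was not tested. EGFR itself, the receptor above the pathway, was higher in HCC827 by 3.52 ± 0.23 on the log2 scale on ONT and by 3.11 ± 0.13 on Illumina (log2 fold ± SE).

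On ONT 5 of the 10 genes were higher in HCC827, 2 were lower and 3 did not pass the test. On Illumina 6 were higher, 3 were lower and 1 did not pass. DUSP4, DUSP6, SPRY1, SPRY2 and ETV4 rose and SPRY4 and SPRED2 fell in HCC827 on both platforms by the same test (edgeR quasi-likelihood, 3 libraries per line, called at a Benjamini-Hochberg adjusted p below 0.05). The lines differ in most genes: 62.7% of the 27366 genes tested on ONT were called (31.1% higher and 31.6% lower in HCC827), and 74.1% of the 25711 tested on Illumina (36.1% higher and 38% lower). Read against these shares, the 7 of 10 members called on ONT and the 9 of 10 called on Illumina are not in themselves a result about these genes. The median log2 fold of the 10 was 0.46 on ONT, where all genes had a median of -0.02, and 0.49 on Illumina, where all genes had -0.04. Regardless of direction, the median size of the log2 fold over all genes was 0.77 on each platform. The 10 were not tested as a set. In bulk RNA, fewer cells with a transcript and less of it per cell cannot be told apart.

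**Figure D1:**
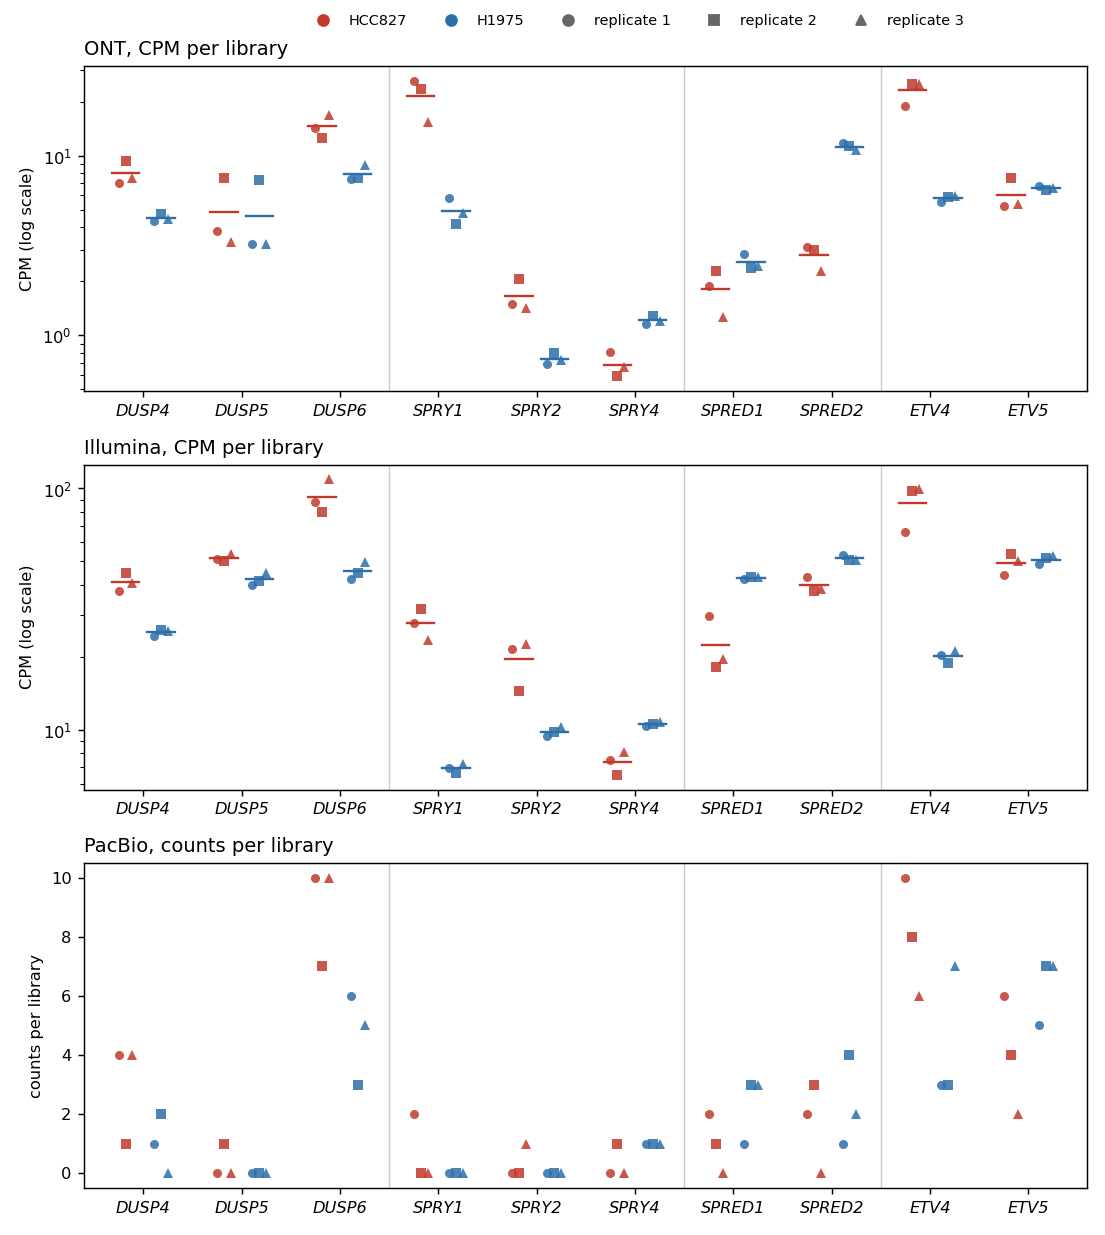
Level of each of the 10 genes in every library on ONT (top) and Illumina (middle), in CPM on a log axis, and on PacBio (bottom), in counts on a linear axis. HCC827 is red and H1975 blue, marker shapes give the replicate and lines the means of the 3 ONT or Illumina libraries. The lines lie far apart for SPRY1 and ETV4 on ONT and Illumina and for SPRED2 on ONT, and ONT DUSP5 shows 1 high library in each line.

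DUSP4 and DUSP6 rose in HCC827 on both platforms, and DUSP5 passed the test on Illumina and not on ONT. DUSP6 (ENSG00000139318, chr12:89347235-89352501, minus strand), the cytoplasmic phosphatase most specific for ERK, had 14.2, 12.6 and 16.9 CPM in the HCC827 ONT libraries, against 7.38, 7.53 and 8.91 CPM in H1975. Illumina gave 87.5, 80.0 and 109.0 CPM in HCC827, against 42.3, 44.9 and 49.4 CPM in H1975. On neither platform did the lines overlap. The log2 fold was 0.87 ± 0.16 on ONT (edgeR adjusted p = 0.000704) and 1.02 ± 0.12 on Illumina (adjusted p = 2.2e-06). An antisense long noncoding RNA, ENSG00000274021, covers 28.6% of the exonic bases of DUSP6 on the opposite strand. It had 25.8, 26.0 and 27.0 Illumina CPM in HCC827, against 11.0 to 14.4 CPM in H1975, so it was higher in HCC827 together with DUSP6. On ONT it had 6.52, 2.74 and 9.16 CPM in HCC827, against 4.23, 4.71 and 4.76 CPM in H1975, and the lines overlapped. The part of this RNA in the DUSP6 fold was not tested, and without the strand setting of the counting, which the sources used here do not give, reads of the pair cannot be told apart.

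DUSP4 (ENSG00000120875, chr8:29333064-29350684, minus strand), an inducible nuclear phosphatase of ERK, JNK and p38, was higher in HCC827 as well. It had 7.05, 9.34 and 7.49 CPM in HCC827 on ONT, against 4.31, 4.71 and 4.43 CPM in H1975. On Illumina the levels were 37.5, 44.6 and 40.7 CPM in HCC827, against 24.6, 26.0 and 25.8 CPM in H1975. Every HCC827 library was above every H1975 library, with a log2 fold of 0.83 ± 0.16 on ONT (edgeR adjusted p = 0.000931) and of 0.68 ± 0.10 on Illumina (adjusted p = 1.74e-05).

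DUSP5 (ENSG00000138166, chr10:110497907-110511533, plus strand), a nuclear phosphatase that acts on ERK and also anchors it there, had 51.2, 50.0 and 53.7 CPM in HCC827 on Illumina, against 39.9, 41.6 and 44.6 CPM in H1975. The lines were apart, but the fold was small, 0.30 ± 0.09 (edgeR adjusted p = 0.00851), and it no longer passed without H1975 replicate 1 (adjusted p = 0.0676) or without H1975 replicate 2 (adjusted p = 0.0576). ONT gave 3.79, 7.52 and 3.30 CPM in HCC827, against 3.24, 7.29 and 3.24 CPM in H1975. Replicate 2 was the highest in both lines, by about the same amount, and the lines overlapped, with a log2 fold of 0.09 ± 0.36 (edgeR adjusted p = 0.843). On Illumina the second replicates of DUSP5 were not set apart in either line. Without replicate 2 of both lines, a choice made after these values were seen, the ONT fold of DUSP5 was 0.15 with an adjusted p of 0.416. Its fold was not shown to differ between the platforms (ONT minus Illumina -0.04 ± 0.43, edgeR interaction adjusted p = 0.983).

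Sproutys moved in opposite directions. SPRY1 (ENSG00000164056, chr4:123396795-123403760, plus strand), an inhibitor of receptor tyrosine kinase signalling, had 26.0, 23.4 and 15.4 CPM in HCC827 on ONT, against 5.83, 4.16 and 4.79 CPM in H1975. Its Illumina levels were 27.7, 31.6 and 23.6 CPM in HCC827, against 6.95, 6.64 and 7.23 CPM in H1975. The lowest HCC827 library stood well above the highest H1975 library on each platform. The log2 fold was 2.13 ± 0.22 on ONT (edgeR adjusted p = 1.11e-05) and 1.98 ± 0.12 on Illumina (adjusted p = 2.62e-09).

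SPRY2 (ENSG00000136158, chr13:80335976-80341126, minus strand) binds GRB2 and also CBL, the ubiquitin ligase that takes EGFR down. Its ONT level was 1.50, 2.07 and 1.41 CPM in HCC827, against 0.692, 0.801 and 0.725 CPM in H1975. On Illumina it was 21.7, 14.5 and 22.6 CPM in HCC827, against 9.41, 9.81 and 10.3 CPM in H1975. The groups did not overlap, although the shallow second HCC827 library lay nearer to H1975 on Illumina. The log2 fold was 1.17 ± 0.21 on ONT (edgeR adjusted p = 0.000643) and 1.03 ± 0.14 on Illumina (adjusted p = 1.02e-05).

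SPRY4 (ENSG00000187678, chr5:142310427-142326455, minus strand), a further inhibitor of receptor signalling to ERK, was lower in HCC827. It had 0.808, 0.591 and 0.663 CPM in HCC827 on ONT, against 1.15, 1.29 and 1.20 CPM in H1975. Illumina gave 7.52, 6.53 and 8.09 CPM in HCC827, against 10.4, 10.6 and 10.8 CPM in H1975. All HCC827 libraries lay below all H1975 libraries, with a log2 fold of -0.81 ± 0.20 on ONT (edgeR adjusted p = 0.00474) and of -0.49 ± 0.11 on Illumina (adjusted p = 0.00123).

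**Figure D2:**
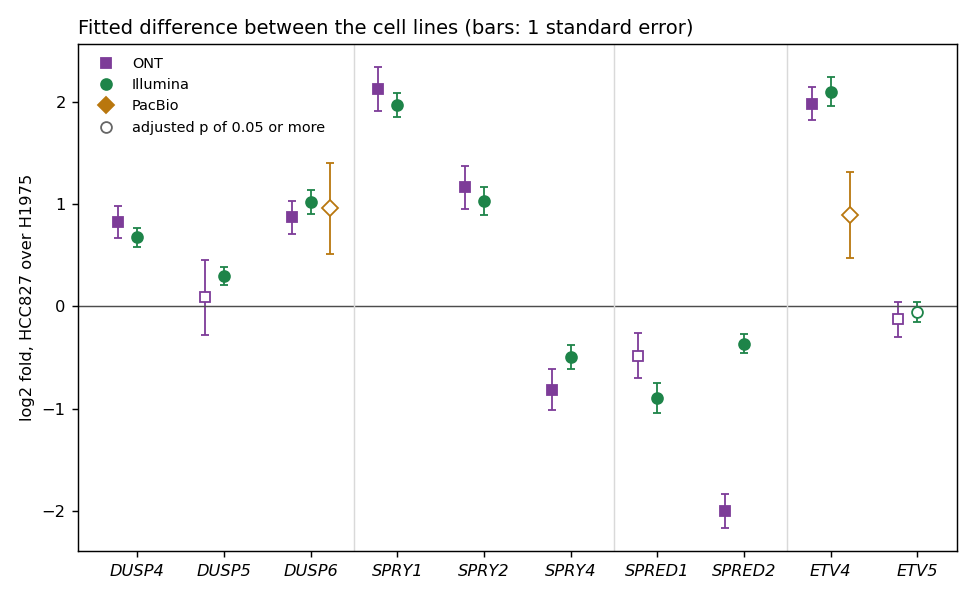
Fitted log2 fold of HCC827 over H1975 for each gene on ONT (squares), Illumina (circles) and PacBio (diamonds, only DUSP6 and ETV4 tested). Bars are 1 standard error and open symbols have an adjusted p of 0.05 or more. SPRY1 and ETV4 lie near 2 on ONT and Illumina, ETV5 lies near 0, and SPRED2 is far lower on ONT (-2.01) than on Illumina (-0.37).

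SPRED2 fell in HCC827 on both platforms, by an amount that differed between them, and SPRED1 fell on Illumina. SPRED2 (ENSG00000198369, chr2:65310851-65432637, minus strand) had 3.11, 2.98 and 2.29 CPM in HCC827 on ONT, against 11.7, 11.3 and 10.7 CPM in H1975. Illumina gave 43.1, 37.7 and 38.3 CPM in HCC827, against 53.1, 50.8 and 50.3 CPM in H1975. Both platforms separated the lines without overlap and gave the same direction. The log2 fold was -2.01 ± 0.16 on ONT (edgeR adjusted p = 2.47e-06) and -0.37 ± 0.09 on Illumina (adjusted p = 0.00259).

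The fold of SPRED2 differed between the platforms by -1.47 ± 0.19 on the log2 scale, ONT minus Illumina (edgeR interaction of line and platform over 12 libraries, adjusted p = 3.33e-05). This value comes from a joint fit with its own scaling, so it is not a subtraction of the folds fitted within each platform. SPRED2 was the only member of the 10 for which this test passed, while 7.16% of the 29395 genes tested passed it (5.03% higher and 2.13% lower on ONT). The median difference of all genes was 0.11, so the SPRED2 value lies below 0 by even more when read against it. Expressed as a ratio of mean CPM, SPRED2 on ONT was 0.0703 of its Illumina level in HCC827 and 0.219 of it in H1975. RNA input, library preparation and counting change together with the platform, so these cannot be told apart. SPRED2 is annotated with the separate transcript starts shown above, and the counts are per gene, so they do not show which transcripts were read. No gene on either strand shares exonic bases with it, although a long noncoding RNA lies inside an intron on the same strand.

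SPRED1 (ENSG00000166068, chr15:38252836-38357249, plus strand), the gene mutated in Legius syndrome, had 1.89, 2.29 and 1.27 CPM in HCC827 on ONT, against 2.84, 2.36 and 2.43 CPM in H1975. Illumina gave 29.5, 18.2 and 19.6 CPM in HCC827, against 42.1, 42.9 and 42.9 CPM in H1975. The lines did not overlap on either platform, yet on ONT the second HCC827 library came within a few hundredths of a CPM of the lowest H1975 library. The log2 fold was -0.90 ± 0.14 on Illumina (edgeR adjusted p = 6.06e-05), and -0.48 ± 0.22 on ONT, where it did not pass (adjusted p = 0.0762). The ONT call and size rest on single libraries: the fold was -0.65 without HCC827 replicate 2 (adjusted p = 0.00751), -0.40 without H1975 replicate 1 (0.216) and -0.28 without HCC827 replicate 3 (0.199). The difference of its folds, ONT minus Illumina, was 0.59 ± 0.28 and did not pass (edgeR interaction adjusted p = 0.24), and it was 0.22 without HCC827 replicate 2.

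**Figure D3:**
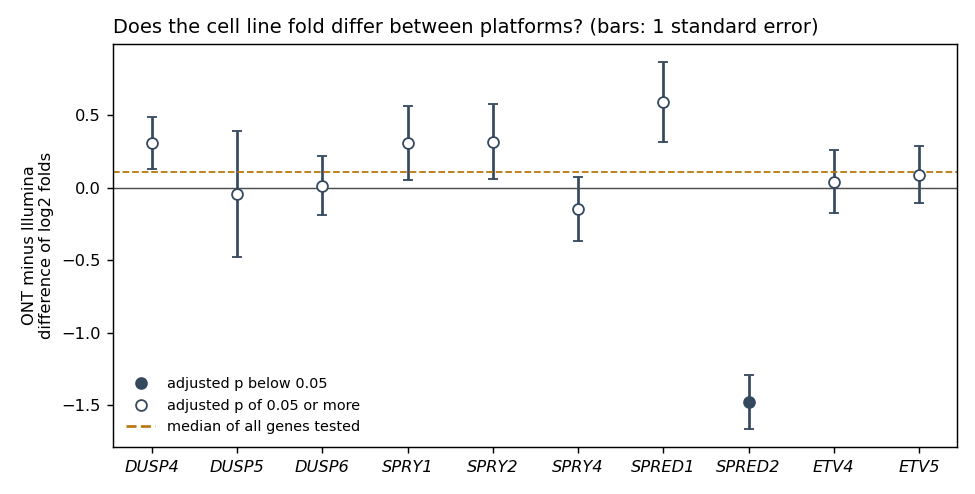
Difference between the ONT and the Illumina log2 fold of HCC827 over H1975 for each gene, from the interaction term of the joint fit, with 1 standard error. The values are not subtractions of the folds fitted within each platform. The dashed line is the median of all genes tested (0.11). SPRED2 is the only filled symbol, at -1.47, and the other 9 lie between -0.15 and 0.59.

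The PEA3 factors split. ETV4 (ENSG00000175832, chr17:43527844-43579620, minus strand) had 18.9, 25.2 and 25.1 CPM in HCC827 on ONT, against 5.51, 5.91 and 5.99 CPM in H1975. On Illumina it had 65.8, 97.2 and 99.0 CPM in HCC827, against 20.5, 19.0 and 21.2 CPM in H1975. No library of one line reached the range of the other. ETV4 had the largest fold of the 10 on Illumina, 2.11 ± 0.14 (edgeR adjusted p = 8.04e-09), and 1.99 ± 0.16 on ONT (adjusted p = 2.13e-06). DHX8 on the opposite strand overlaps 68 exonic bases of ETV4, 1.94% of them. DHX8 had 139, 203 and 179 Illumina CPM in HCC827, against 67.8, 63.7 and 67.2 CPM in H1975, and its part in the ETV4 fold was not tested.

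ETV5 (ENSG00000244405, chr3:186046314-186110318, minus strand), the closest relative of ETV4 in the set, had 5.25, 7.53 and 5.41 CPM in HCC827 on ONT, against 6.74, 6.48 and 6.60 CPM in H1975. Its Illumina levels were 43.7, 53.6 and 50.0 CPM in HCC827, against 48.5, 51.3 and 52.5 CPM in H1975. H1975 fell inside the HCC827 range on both platforms, and the log2 fold was -0.12 ± 0.17 on ONT (edgeR adjusted p = 0.544) and -0.06 ± 0.10 on Illumina (adjusted p = 0.617). Single libraries moved the ONT value: it was -0.28 without HCC827 replicate 2, the highest of its group (adjusted p = 0.0489), -0.31 without replicate 2 of both lines (0.0744), -0.04 without HCC827 replicate 3 (0.848) and -0.02 without HCC827 replicate 1 (0.942). The Illumina value was 0.02 without HCC827 replicate 1. ETV5 shares 164 exonic bases, 2.84%, with DGKG on the same strand.

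The makeup of each small family was also expressed as a share within a library, which needs no scaling between libraries. The shares restate the levels above in another form and are no independent evidence. Shares were taken from counts on ONT, where a read stands for 1 transcript, and from counts per kilobase of exon on Illumina. ETV4 made up 79.2 ± 2.75% of ETV4 and ETV5 together in HCC827 on ONT and 46.7 ± 1.54% in H1975 (mean ± SD, n = 3 each). On Illumina it made up 74.2 ± 2.71% in HCC827 and 39.5 ± 1.64% in H1975 (n = 3 each). The libraries of the lines did not overlap, so the exact two-sided permutation test gave p = 0.1 on each platform, the smallest that 3 against 3 allows, and 0.167 after adjustment over the 5 shares per platform. ETV4 made up most of the pair in HCC827 on both platforms. Whether it did so in H1975 on ONT depended on the scale, since per kilobase of exon its ONT share was 86.2 ± 1.98% in HCC827 and 59.0 ± 1.50% in H1975.

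SPRY1 made up 89.9 ± 1.86% of SPRY1, SPRY2 and SPRY4 in HCC827 on ONT and 71.3 ± 4.72% in H1975. On Illumina the share was 49.3 ± 8.91% in HCC827 and 27.2 ± 0.770% in H1975, again with p = 0.1 by the exact permutation test on each platform, and 0.167 adjusted. SPRY1 therefore led the Sproutys in both lines on ONT. On Illumina the leader in H1975 depended on the scale. Per kilobase of exon it was SPRY2, while by mean CPM SPRY4 (10.6) stood above SPRY2 (9.85) and SPRY1 (6.94). SPRY1 was also the member that ONT counted most heavily relative to Illumina, with a CPM ratio of 0.781 in HCC827 and 0.710 in H1975, while those of SPRY2 were 0.0847 and 0.0750.

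The share of SPRED1 in SPRED1 and SPRED2 was higher in HCC827 on ONT and lower on Illumina. On ONT it was 39.0 ± 4.04% in HCC827 and 18.4 ± 1.15% in H1975, and on Illumina it was 28.3 ± 3.87% in HCC827 and 37.1 ± 0.892% in H1975. The libraries of the lines did not overlap on either platform (exact permutation p = 0.1, the smallest possible, and 0.167 adjusted, on each). The difference between the platforms in this share was not tested. DUSP4 made up 35.5 ± 6.30% of DUSP4 and DUSP6 in HCC827 and 36.2 ± 2.70% in H1975 on ONT (exact permutation p = 0.9). On Illumina it made up 19.3 ± 3.22% in HCC827 and 22.9 ± 1.08% in H1975 (exact permutation p = 0.2). This share was not shown to differ between the lines, which with 3 libraries each does not show it to be constant. DUSP5 is not in it, and its Illumina log2 fold was smaller than that of DUSP6 (0.30 against 1.02).

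**Figure D4:**
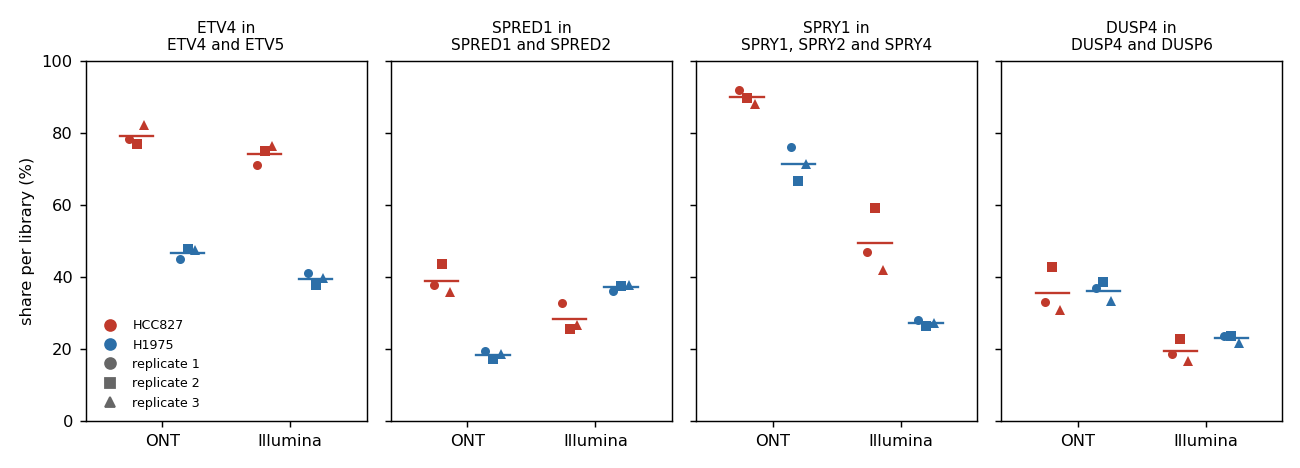
Share of the first gene in each named pair or trio, per library, on ONT (from counts) and Illumina (from counts per kilobase of exon), with HCC827 in red left of H1975 in blue and lines at the means. The ETV4 and SPRY1 shares are higher in HCC827 on both platforms, the SPRED1 share is higher in HCC827 on ONT and lower on Illumina, and the DUSP4 shares lie close together.

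Set against each other per kilobase of exon on Illumina, the levels ran in a different order in each line. In HCC827 ETV4 came first (24.9 ± 5.32 CPM per kilobase), followed by DUSP6 (23.9 ± 3.91) and DUSP5 (20.4 ± 0.742), and the ranges of these neighbours overlapped. ETV5 (8.51), SPRED2 (7.21), SPRY1 (6.97), SPRY2 (6.10) and DUSP4 (5.63) formed a second, overlapping run, with SPRED1 (2.90) and SPRY4 (1.13) below them. In H1975 DUSP5 came first (16.6 ± 0.941), then DUSP6 (11.8 ± 0.940), SPRED2 (9.34) and ETV5 (8.80), each with a range clear of its neighbour. ETV4 (5.75) and SPRED1 (5.50) overlapped, and DUSP4 (3.50), SPRY2 (3.07), SPRY1 (1.75) and SPRY4 (1.62) followed in ranges that did not overlap. SPRY4 was the lowest in both lines on this scale. By mean CPM in H1975 it stood above SPRY1 and SPRY2 on Illumina (10.6 against 6.94 and 9.85). On ONT it stood above SPRY2 there (1.21 against 0.739 CPM). ONT CPM also gave another order, with SPRED2 highest in H1975 (11.2) and SPRY1 (21.6) next to ETV4 (23.0) in HCC827.

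PacBio counts were too low for most of the 10. By the file headers they were taken from clustered sequences, so a count need not stand for 1 read or molecule. The noise check and the intervals below treat each count as independent, and the effect of clustering on the folds was not tested. The counts of HCC827 replicates 1 and 2 agreed within sampling noise (chi-square of 0.671 averaged over genes), and so did those of H1975 replicates 2 and 3 (0.550). Each pair was therefore summed and counted as 1 sample, which left 2 samples per line. DUSP6 and ETV4 passed the filter on low counts and the other 8 did not. DUSP6 had 27 counts in all HCC827 libraries and 14 in all H1975 libraries, with a fitted log2 fold of 0.96 ± 0.44 (edgeR adjusted p = 0.245). ETV4 had 24 counts in HCC827 and 13 in H1975, with 0.90 ± 0.42 (adjusted p = 0.246). Neither of them passed, where 3.34% of the 1885 genes tested were called (1.54% higher and 1.8% lower in HCC827).

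Of the members below the PacBio filter, DUSP4 had 9 counts in HCC827 and 3 in H1975, and ETV5 had 12 in HCC827 and 19 in H1975. Scaled by depth, these are ratios of 3.26 for DUSP4 (exact 95% interval 0.814 to 18.7) and 0.687 for ETV5 (0.304 to 1.49). SPRED2 had 5 counts in HCC827 and 7 in H1975, a ratio of 0.777 whose interval, 0.194 to 2.84, holds both the ONT and the Illumina fold. SPRED1 had 3 counts in HCC827 and 7 in H1975, and SPRY4 had 1 in HCC827 and 3 in H1975. SPRY1 had 2 counts in HCC827 and SPRY2 and DUSP5 had 1 each, against 0 for these genes in H1975. The share of ETV4 in ETV4 and ETV5 was 66.7% in HCC827 (24 of 36 counts, exact 95% Clopper-Pearson interval 49.0 to 81.4%) and 40.6% in H1975 (13 of 32, 23.7 to 59.4%). These intervals cover counting error only, with each clustered sequence taken as an independent count.

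Relatives outside the 10 also went in both directions. Of 10 further DUSP, Sprouty, SPRED and PEA3 genes 9 were tested on ONT, where 5 were higher in HCC827, 3 were lower and 1 did not pass (median log2 fold 0.90). On Illumina all 10 were tested and 6 were higher and 4 lower (median 0.85). Of all genes tested, 31.1% were higher and 31.6% lower on ONT, and 36.1% and 38% on Illumina. Beside these shares, the counts called are not in themselves a result about the relatives. SPRED3, the third SPRED, had 13.7, 15.3 and 13.8 Illumina CPM in HCC827, against 4.44, 4.35 and 3.69 CPM in H1975. It rose by 2.25 ± 0.22 on ONT and by 1.76 ± 0.12 on Illumina (log2, edgeR adjusted p = 7.99e-06 and 8.71e-09), while SPRED1 and SPRED2 had negative folds. DUSP7, a cytoplasmic ERK phosphatase of the DUSP6 group, fell by 1.53 on ONT and by 1.56 on Illumina, and DUSP9, the third phosphatase of that group, fell by 1.66 and by 2.33. The cytoplasmic ERK phosphatases thus moved apart, DUSP6 higher in HCC827 and DUSP7 and DUSP9 lower. Log2 folds on Illumina were 1.08 for DUSP1, 1.27 for DUSP2, 1.12 for DUSP8, 0.63 for DUSP16 and -0.43 for DUSP10, all with an edgeR adjusted p below 0.05. ETV1, the third PEA3 factor, fell by 0.65 on Illumina and had -0.30 ± 0.28 on ONT, where it did not pass. SPRY3 had 2.42, 2.21 and 2.13 Illumina CPM in HCC827, against 0.0966, 0.239 and 0.239 CPM in H1975, and did not reach the ONT filter.

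Other ERK-induced genes did not move one way, and every rise or fall named in this and the next paragraph passed at an edgeR adjusted p below 0.05. Of 21 tested on ONT 7 were higher, 6 were lower and 8 did not pass, with a median log2 fold of -0.07. Of 22 tested on Illumina 10 were higher, 10 were lower and 2 did not pass, with a median of 0.11. Over all genes 31.1% were higher and 31.6% lower on ONT, and 36.1% and 38% on Illumina. The counts called are therefore not in themselves a result about this list. FOSL1, an AP-1 subunit stabilised by ERK, had 147, 196 and 174 Illumina CPM in HCC827, against 60.2, 59.6 and 55.8 CPM in H1975. It rose by 1.20 ± 0.15 on ONT and by 1.55 ± 0.11 on Illumina. JUNB, another AP-1 subunit, fell by 0.95 on ONT and by 1.32 on Illumina, and SPHK1, which makes sphingosine-1-phosphate, fell by 2.82 on ONT and by 2.63 on Illumina. EGR3, an immediate early transcription factor, had 2 Illumina counts in all HCC827 libraries and 68 in H1975, a ratio of 0.0398 after scaling by depth (exact 95% interval 0.00473 to 0.150, which covers counting error and not the spread between libraries).

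Among 21 genes of the cascade from GRB2 to SRF, 9 were higher, 2 were lower and 10 did not pass on ONT (median 0.13), and 8 were higher, 8 were lower and 5 did not pass on Illumina (median -0.17). MAPK3, which encodes ERK1, rose by 1.93 ± 0.27 on ONT and by 1.59 ± 0.15 on Illumina, and RPS6KA1, an ERK-activated ribosomal S6 kinase, by 1.59 and by 1.51. The RAS relative RRAS2 fell by 1.74 on ONT and by 1.22 on Illumina, and SOS1, the exchange factor that loads RAS, fell by 0.56 and by 0.99. Among 16 other brakes on the pathway 5 were higher, 4 were lower and 7 did not pass on ONT (median -0.21), and 4 were higher, 10 were lower and 2 did not pass on Illumina (median -0.38). The shares of all genes were 31.1% higher and 31.6% lower on ONT, and 36.1% and 38% on Illumina. Neither for the cascade nor for the brakes are the counts called in themselves a result. ERF, an ETS repressor that ERK removes from the nucleus, rose by 2.18 ± 0.23 on ONT and by 2.03 ± 0.11 on Illumina. NF1, the RAS GTPase activator that SPREDs recruit, fell by 0.64 on ONT and by 1.20 on Illumina. LRIG1, which lowers EGFR protein, fell by 1.02 and by 2.95, and PTPN12 fell by 0.88 and by 1.04. Exons of LRIG1 overlap SLC25A26 on the opposite strand over 37.9% of their length.

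**Figure D5:**
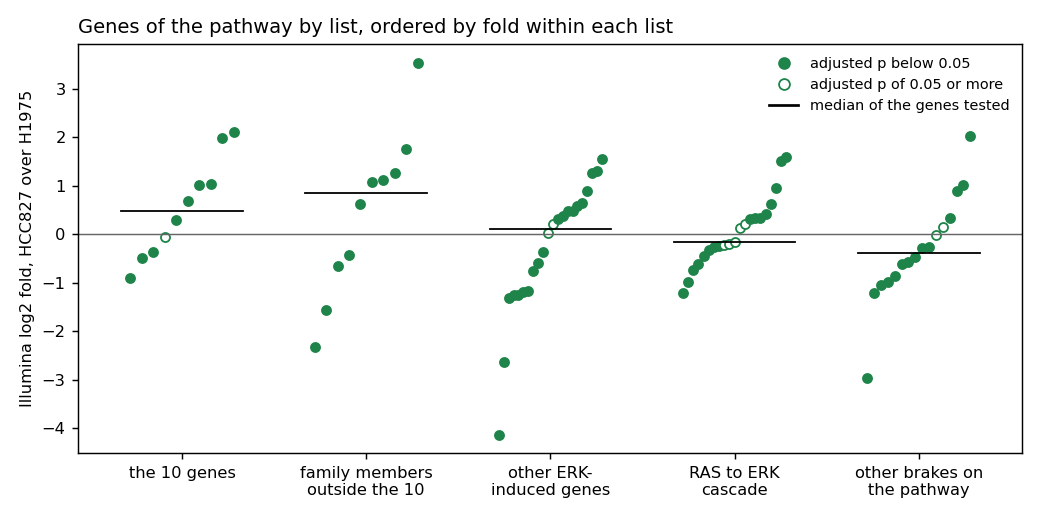
Illumina log2 folds of HCC827 over H1975 for the 10 genes and 4 other lists of the pathway, ordered within each list, with black lines at the medians of the genes tested and open symbols for an adjusted p of 0.05 or more. Every list holds genes on both sides of 0. The lowest point is EGR3, whose fitted fold rests on 2 counts in HCC827.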

How the data were processed

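Each library has 1 deposited file of raw gene counts without normalization. Alignment and counting tools named in the submitters' processing notes are minimap2 2.17 and featureCounts, with GRCh38 as the build; the sources used here give neither the annotation release nor the version and strand setting of featureCounts. Clustered sequences were what the PacBio counts were taken from, per the file headers. Only the headers of HCC827 replicate 3 differ from their group, naming polyA on PacBio and, on Illumina, a repeat with the number 5 in place of 3.

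Identifiers without version were matched to GENCODE for symbols, coordinates and exon length. Sequins, synthetic spike-in RNAs, were left out (0.0436 to 3.71% of a library). CPM used effective library sizes of each platform's fit. The SE of a log2 fold was calculated back from the test, as its absolute value divided by the square root of the quasi-likelihood F statistic. Tests used edgeR 4.0.16 in R 4.3.3 (TMM, filterByExpr, robust quasi-likelihood, two-sided, called at an adjusted p below 0.05 over all genes tested), within each platform, and an interaction of line and platform over ONT and Illumina. Scripts were tested on simulated data.

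The members and lists were chosen with earlier results of these data known. Named genes are the 10 members, EGFR, every tested relative and, from each other list, the 4 genes called on Illumina with the largest absolute fold. The labels number the RNA samples alike on ONT and Illumina, and the series design has each sample sequenced on every platform. For HCC827 replicate 3, whose Illumina header carries another number, this rests on the label alone. Their deviations from the group mean correlated across genes at 0.174, 0.0825 and 0.159 in HCC827 and at 0.0420, -0.0003 and 0.0446 in H1975, and the replicate block changed no call of a member in that fit. Alternatives were RLE scaling, DESeq2 1.42.0, no filter, a replicate block, thinning Illumina to its smallest library, separate PacBio libraries, ONT shares per kilobase and leaving out each replicate. Promoters are from the RefSeq table for GRCh38.p14.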

Additional observations from a re-analysis of the deposited data

Results flagged for a closer look

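The members, EGFR, the relatives and the 4 genes named from each pathway list were checked here. Of these, the 3 genes below had a log2 fold of HCC827 over H1975 that differed between ONT and Illumina. The test was the interaction test of edgeR, with differences given as ONT minus Illumina. In the full lists RASAL2 and TOB1 among the other brakes and GRB2 and ELK4 in the cascade also passed, all with positive values. So did the fibroblast marker PDGFRB. Of all 29395 genes tested, 7.16% passed. SPRED2 differed by -1.47 ± 0.19 (adjusted p = 3.33e-05). Fitted within each platform, its fold was -2.01 on ONT and -0.37 on Illumina. The SPRED2 difference passed in each of 10 alternatives, with values of -1.61 to -1.38.

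LRIG1 differed by 2.11 ± 0.24 (adjusted p = 9.92e-06). It had 1.34, 1.00 and 1.34 CPM in HCC827 on ONT, against 2.68, 2.14 and 2.62 CPM in H1975. On Illumina it had 2.74, 1.98 and 2.30 CPM in HCC827, against 19.6, 18.9 and 18.3 CPM in H1975. The fold is thus smaller in size on ONT, the opposite of SPRED2, and the part of the SLC25A26 overlap in it was not tested.

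NF1 differed by 0.72 ± 0.18 (adjusted p = 0.0156). It had 15.7, 12.8 and 12.3 CPM in HCC827 on ONT, against 20.7, 21.5 and 21.6 CPM in H1975. On Illumina it had 91.0, 76.0 and 72.7 CPM in HCC827, against 181, 191 and 181 CPM in H1975. Groups of 3 libraries are too small for a check of single outlying libraries.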

How the results depend on the processing

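Of 330 values of single members under the alternatives, 304 kept their direction and their side of the threshold, 20 changed sign, 4 passed the test where the reported fit did not and 2 no longer passed. The members called numbered 8 to 9 on Illumina, 7 to 9 on ONT and 1 for the fold difference in all alternatives. None of the values that changed sign had passed the test. ETV5 on Illumina ranged from -0.101 to 0.0233 and DUSP5 on ONT from -0.34 to 0.59 when 1 library was left out. For the fold difference of ONT minus Illumina, leaving out 1 library gave -0.58 to 0.46 for DUSP5, -0.0433 to 0.0337 for DUSP6, -0.0906 to 0.516 for SPRY2, 0.218 to 0.824 for SPRED1, -0.0108 to 0.0948 for ETV4 and -0.0961 to 0.181 for ETV5. RLE scaling gave -0.0932 for DUSP6, -0.0699 for ETV4 and -0.0249 for ETV5, and DESeq2 gave -0.0930, -0.0700 and -0.0232. Both lower that difference over all genes, by a median of 0.107 and of 0.109 log2 units, which is their construction, and 59.5% and 60.0% of the called genes were then higher on ONT, against 70.2% in the reported fit. SPRED1 on ONT passed with no filter on low counts (adjusted p = 0.0466) and without replicate 2 of both lines (0.0123, chosen after seeing the data). Per kilobase, the ONT shares differed by 27.1 points for ETV4, 17.4 for SPRED1 and 14.9 for SPRY1. Over all genes, PacBio calls numbered 63, against 206 with 6 separate libraries, 15 with DESeq2, 475 with no filter and 0 to 365 without 1 library (0 without H1975 replicate 2 or 3, or HCC827 replicate 1 or 2, and 365 without HCC827 replicate 3). At an unadjusted p below 0.05 the reported PacBio fit had 429 genes. Calls of a fold difference numbered 2105, against 1101 to 2765 without 1 library, and 1105, 1150 and 1101 without H1975 replicate 2, 1 or 3. Within a platform the lines share only replicate numbers, whose deviations correlated at 0.0157, -0.128 and -0.0710 on ONT, at -0.0669, -0.00914 and 0.0969 on Illumina and at -0.528, 0.233 and -0.519 on PacBio. With the replicate block 9 members were called on Illumina, 7 on ONT, 0 on PacBio and 1 for the fold difference, and all genes called numbered 18793, 16320, 50 and 3109.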

Other observations

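By their labels the same RNA samples were read on ONT and Illumina (for HCC827 replicate 3 the Illumina header carries the number 5), so the order of the 3 samples of a line can be compared between the platforms. In HCC827 the order was the same for 28.9% of 23433 genes and for 3 of the 10 members, DUSP4, DUSP6 and ETV5. In H1975 it was the same for 21.1% of these genes and for 3 of the members, DUSP4, DUSP6 and SPRED2. DUSP6, for example, was highest in replicate 3 of each line on both platforms. Orders of only 3 samples also match by luck in some genes. The members lay near the share of all genes, so their matches are not a result about them.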
